A study of Mus musculus with 12 samples.

Results

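Cultured follicular B cells were examined for 7 genes that encode costimulatory and activation molecules of the cell surface: *Cd86*, *Cd80*, *Icosl*, *Cd40*, *Cd83*, *Cd69* and *Cd24a*. The genes were set by symbol, with earlier results of these data known, and all 7 had a row in both count tables, which together listed 13574 genes. Follicular B cells are the recirculating mature B cells of the spleen, and here they were sorted as CD21/35- CD23+ cells from the spleens of adult male mice. The groups were WT (Gpr174+/Y) and KO (Gpr174-/Y) cells, each frozen either without culture (0 h) or once they had spent 4 h in complete RPMI with serum and no added stimulus. Each group had 3 libraries. The authors give 3 mice per genotype for a plot of both times, by which mice would have given both a 0 h and a 4 h library. Which libraries came from the same mouse is not stated. *Gpr174* encodes an X-linked G-protein-coupled receptor. In the KO allele its single coding exon was replaced by tdTomato, a fluorescent reporter, in the germline, so the loss was not limited to B cells.

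CD86 and CD80 are the B7 ligands with which a B cell engages CD28 and CTLA-4 on T cells, and ICOSL is the ligand of ICOS, which T follicular helper cells carry. CD40 receives the CD40 ligand signal from T cells and works through TRAF adaptors and NF-κB. CD83, CD69 and CD24 are surface molecules whose levels are widely used to mark B cell activation or maturation. Resting follicular B cells are known to carry little CD86 and to raise it when activated.

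Totals ran from 6098941 to 11618787 counts per library. *Gpr174*, the targeted gene, lay at 149.5 to 157 CPM (counts relative to scaled library size) in uncultured WT cells against 73.4 to 76.7 CPM in KO cells, and at 153 to 169 CPM against 105 to 118 CPM after culture, so every KO library lay below every WT library, while reads remained at the locus. The tables give no separate count for the replaced exon. B cell markers summed to 5212 to 7223 CPM over the 6 of 8 listed genes present in the tables. Markers of other cells were far lower, with T cell markers at 21.3 to 41.6 CPM over 10 genes and natural killer cell markers at 2.50 to 13.0 CPM over 4 genes. Erythroid markers reached 226 CPM over 4 genes and neutrophil markers 118 CPM over 3 genes, each in a KO 0 h library. In bulk libraries such as these, fewer cells of a type and less RNA per cell cannot be told apart.

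The members differed widely in abundance when corrected for length. In uncultured WT cells the mean was 238 RPKM (CPM divided by exonic length in kilobases) for *Cd24a*, 89.2 for *Icosl*, 86.4 for *Cd83*, 39.2 for *Cd40*, 9.05 for *Cd86*, 8.92 for *Cd69* and 0.430 for *Cd80* (n = 3). *Icosl* and *Cd83* overlapped between libraries in that group, as did *Cd86* and *Cd69*, while the other neighbours in the order did not. After 4 h *Cd86* reached 45.5 ± 5.25 RPKM in WT cells (SD, n = 3), above *Cd40* at 21.4 ± 3.57 RPKM in all libraries and still below *Icosl* at 56.7 ± 3.07 RPKM. In KO cells at 4 h *Cd86* stayed at 10.2 ± 0.453 RPKM, below *Cd40* at 29.3 ± 1.22 RPKM. The kit amplifies whole transcripts unevenly, so these comparisons between genes are approximate.

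**Figure D1:**
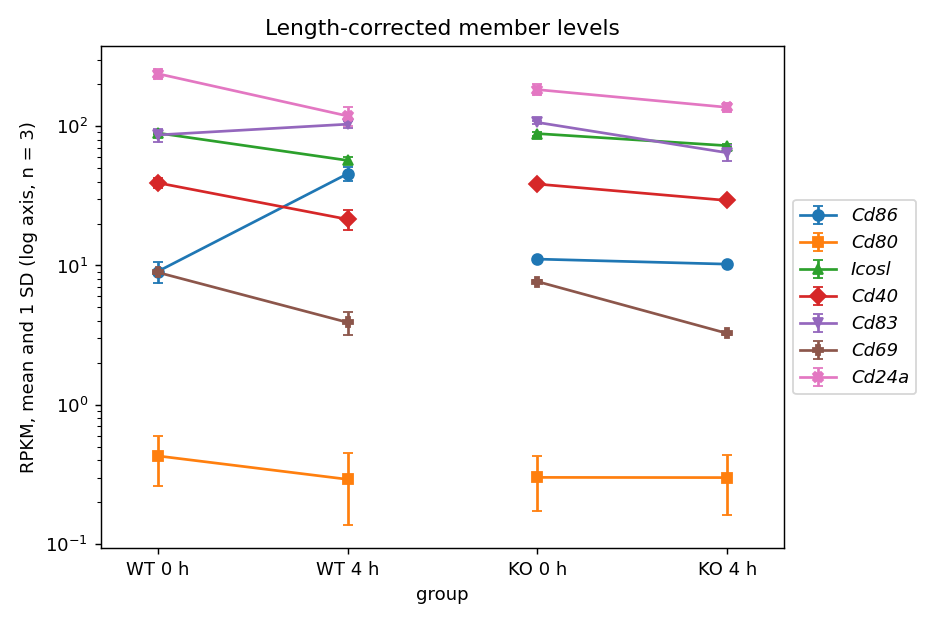
Length-corrected levels of the 7 members in RPKM (mean and 1 SD, n = 3, log axis) in each group, with a line joining 0 h and 4 h of the same genotype. *Cd86* crosses above *Cd40* in WT cells, from 9.05 to 45.5 RPKM, and stays near 10.2 RPKM in KO cells.

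Genotype changed few members before culture and most of them afterwards. At 0 h 2 of 7 members were differentially expressed (edgeR adjusted p below 0.05), 1 higher in WT (*Cd24a*) and 1 higher in KO (*Cd83*), against 0.987% of all genes tested (0.502% in the WT direction and 0.485% in the KO direction). At 4 h 4 of the 6 members tested were called, with *Cd86* and *Cd83* higher in WT and *Icosl* and *Cd40* higher in KO, against 10.9% of all genes (5.22% and 5.67% in those directions). *Cd80* did not pass the filter on low counts at 4 h. The median log2 fold change of the members was 0.02 at 0 h and 0.03 at 4 h, beside 0.00026 and 0.0048 over all genes, since the called members moved in both directions.

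Culture itself moved most members. In WT cells 6 of 7 were called, 2 raised (*Cd86*, *Cd83*) and 4 lowered (*Icosl*, *Cd40*, *Cd69*, *Cd24a*), beside 33.1% of all genes, 15.1% raised and 18% lowered. In KO cells 5 of 7 were called and all 5 were lowered, beside 23.3% of all genes, 10.3% raised and 13% lowered. The WT and KO culture changes were then compared directly in an interaction test. That test called 5 of 7 members, 2 with a higher change in WT (*Cd86*, *Cd83*) and 3 with a higher change in KO (*Icosl*, *Cd40*, *Cd24a*), beside 6.39% of all genes, 2.45% and 3.94% in the respective directions. The interaction, the genotype contrast at 4 h and each culture contrast share libraries, so their values stand side by side and are not separate evidence.

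**Figure D2:**
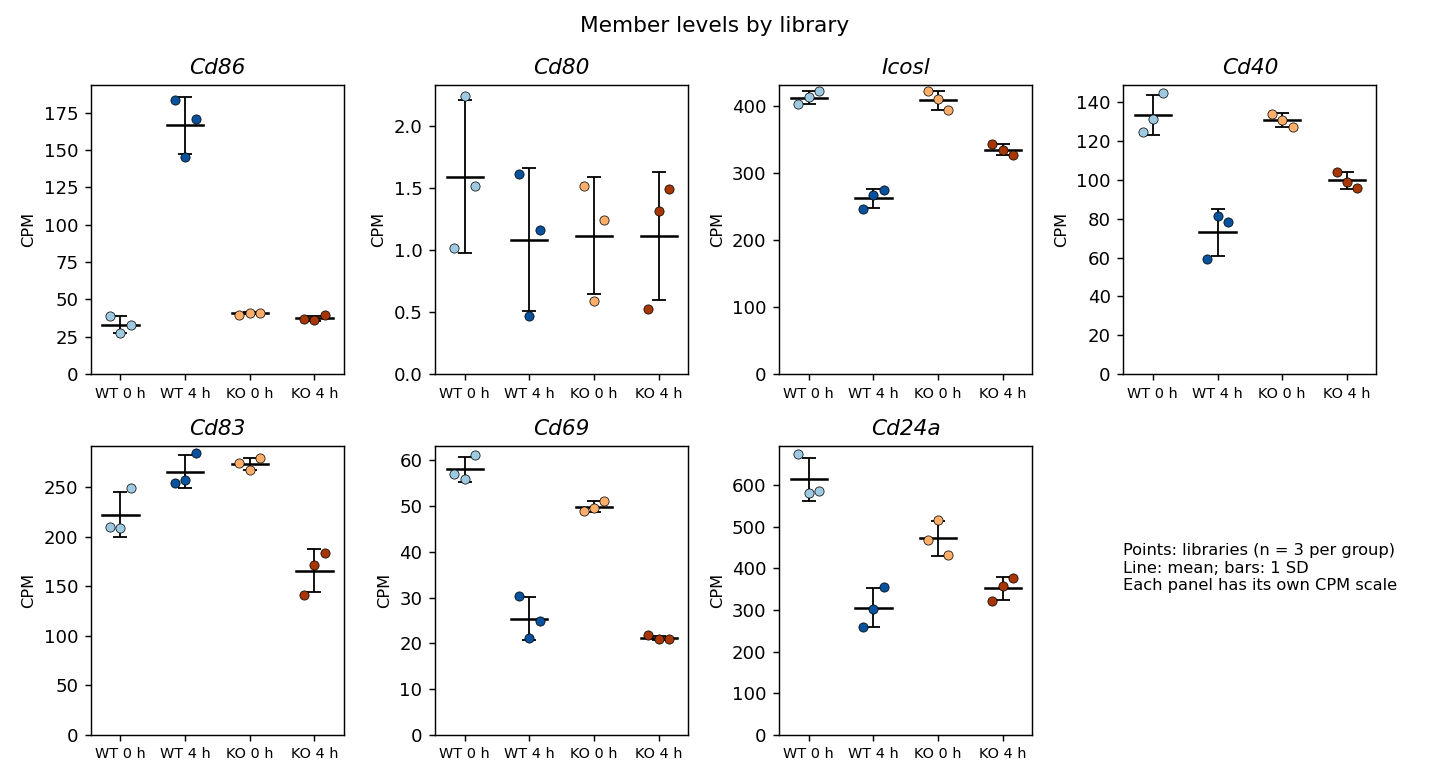
CPM of each member in each library (points), with the group mean and 1 SD (n = 3), on a separate scale from 0 for each gene. *Cd86* is high in WT 4 h alone (145 to 183 CPM), *Cd83* is lowest in KO 4 h (141 to 184 CPM), and *Cd69* falls in both genotypes.

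*Cd86*, the inducible B7 ligand, lies on the minus strand of chromosome 16 (GRCm38, 36603869 to 36666081). WT 0 h libraries held 39.2, 27.5 and 32.7 CPM and KO 0 h libraries 39.8, 41.0 and 41.1 CPM. After culture the WT libraries held 183, 145 and 171 CPM while the KO libraries held 36.9, 36.1 and 39.3 CPM. Every WT 4 h library therefore stood far above the other 9 libraries, among which KO 0 h was highest and WT 0 h overlapped with KO 4 h. Culture raised *Cd86* in WT cells by 2.33 ± 0.10 on the log2 scale, a 5.03-fold rise (adjusted p = 1.29e-13). In KO cells the culture change was -0.12 ± 0.11 (adjusted p = 0.486), with an interval at 2 standard errors from -0.34 to 0.10. The genotype difference was -0.30 ± 0.12 at 0 h (adjusted p = 0.274) and 2.15 ± 0.09 at 4 h, or 4.45-fold (adjusted p = 3.37e-10), the rank 5 by p among 11123 genes. The 2 culture changes differed by 2.45 ± 0.15 (adjusted p = 5.51e-10).

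Cells other than follicular B cells also carry CD86, so their markers are given beside it. Dendritic cell markers were summed over the 7 of 9 listed genes present at both times. Before culture the sums ran from 13.2 to 14.4 CPM in WT libraries and from 12.4 to 16.6 CPM in KO libraries. After culture they ran from 11.8 to 17.8 CPM in WT libraries and from 7.77 to 10.9 CPM in KO libraries. Of these genes *Flt3* was called higher in WT at 4 h (log2 fold change 1.53). Its culture change was not called in WT (0.31 ± 0.28, adjusted p = 0.427), and it fell in KO culture (-1.36 ± 0.32, adjusted p = 0.00372). The cultured means of *Itgax* were 1.14 ± 0.386 CPM for WT and 1.44 ± 1.14 CPM for KO (SD, n = 3). For *Zbtb46* the cultured WT mean was the higher one (2.84 ± 0.876 CPM, against 1.71 ± 0.461 CPM). Its genotype difference at 4 h was not called (0.75 ± 0.36, adjusted p = 0.229). Its rise in WT culture was called (1.53 ± 0.44, adjusted p = 0.011), and that in KO culture was not (0.96 ± 0.51, adjusted p = 0.19). The summed level of the 6 of 12 macrophage and monocyte markers present at both times was 55.0 to 68.8 CPM before culture and 23.2 to 36.1 CPM after it in WT, and 57.9 to 62.1 CPM and 29.4 to 42.3 CPM in KO. Of 5 tested, 3 fell in WT culture, while in KO 3 fell and *Emr1*, which encodes the macrophage antigen F4/80, rose (1.13 ± 0.40, adjusted p = 0.0462). The part of these cells in the member changes was not tested.

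*Cd80*, the other B7 ligand, lies on the plus strand of the same chromosome (38455561 to 38496335) and was close to the limit of detection. Libraries held 9, 20 and 17 reads in WT 0 h, 12, 4 and 9 in KO 0 h, 10, 3 and 11 in WT 4 h, and 4, 11 and 11 in KO 4 h. All groups overlapped, and summed reads gave 1.59 CPM in WT 0 h (exact 95% Poisson interval 1.16 to 2.12, counting error only) and 1.09 CPM in WT 4 h (0.697 to 1.62). No contrast was called, and the WT culture change of -0.54 ± 0.50 (adjusted p = 0.441) spanned -1.55 to 0.46 at 2 standard errors, so a fall of more than 1 on the log2 scale lay within the error at this depth. With no filter the 4 h genotype difference was -0.04 ± 0.55 (adjusted p = 0.978). Reads of *Cd86* per read of *Cd80* ranged from 12.3 to 38.7 in WT 0 h and from 114 to 310 in WT 4 h, against 26.3 to 70.0 in KO 4 h.

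*Icosl*, the ligand of ICOS, lies on the plus strand of chromosome 10 (78069302 to 78083913). Its levels were 403, 413 and 421 CPM in WT 0 h and 421, 409 and 394 CPM in KO 0 h. At 4 h they were 246, 266 and 274 CPM in WT and 343, 334 and 326 CPM in KO. The uncultured genotypes overlapped, whereas at 4 h every WT library lay below every KO library and both lay below the uncultured cells. *Icosl* fell by 0.65 ± 0.05 in WT (adjusted p = 3.70e-09) and by 0.29 ± 0.05 in KO (adjusted p = 0.00038) on the log2 scale. The genotype difference was 0.01 ± 0.05 at 0 h (adjusted p = 0.979) and -0.35 ± 0.06 at 4 h (adjusted p = 0.000938), and the culture changes differed by -0.36 ± 0.08 (adjusted p = 0.00359). Within a library there were 10.3 to 15.0 *Icosl* reads for each *Cd86* read in WT 0 h and 1.35 to 1.83 in WT 4 h, whereas KO libraries held 9.57 to 10.6 at 0 h and 8.29 to 9.30 at 4 h. This ratio does not depend on library scaling.

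Sequence upstream of *Icosl* is shown because it holds letters known as binding motifs of *Klf2*, a Krüppel-like factor that also differed with genotype, and was searched for that of *Crem*, a factor of the cAMP response. Of the 7 members 2 (*Icosl* and *Cd80*) had an entry in the RefSeq promoter table (GRCm38.p6). The stretch runs up to the base before the annotated start (chr10:78069118-78069301, plus strand, 184 bases), with CACCC, letters bound by Krüppel-like factors, in capitals:

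Icosl upstream: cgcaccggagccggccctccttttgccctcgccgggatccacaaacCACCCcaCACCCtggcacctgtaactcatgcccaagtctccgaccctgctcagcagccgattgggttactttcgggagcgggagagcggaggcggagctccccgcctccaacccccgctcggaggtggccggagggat

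The 250 bases before the RefSeq start held 0 copies of TGACG, the short form of the cAMP response element, and 2 of CACCC, counted on both strands. Of 32851 promoters of the same length 17.8% held TGACG and 52% held CACCC. The window before the RefSeq start of *Cd80* (chr16:38458683-38458932, plus strand) lay inside the gene as annotated here. It held 0 copies of TGACG and 6 of CACCC.

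*Cd40*, the receptor for the CD40 ligand of helper T cells, lies on the plus strand of chromosome 2 (165055627 to 165072948). WT 0 h libraries held 125, 131 and 145 CPM and KO 0 h libraries 134, 131 and 127 CPM. After culture there were 59.1, 81.5 and 78.5 CPM in WT and 104, 99.0 and 96.0 CPM in KO. The order of groups was that of *Icosl*, with overlap at 0 h and WT below KO in all libraries at 4 h. *Cd40* fell by 0.87 ± 0.09 in WT (adjusted p = 1.09e-07) and by 0.39 ± 0.09 in KO (adjusted p = 0.00216), and genotypes differed by -0.44 ± 0.10 at 4 h (adjusted p = 0.00682) and 0.02 ± 0.07 at 0 h (adjusted p = 0.929). The interaction was -0.47 ± 0.12 (adjusted p = 0.0224). That call was lost with library totals in place of composition scaling (adjusted p = 0.0521) and when replicate 3 of WT 0 h (0.0665), replicate 3 of KO 0 h (0.0584) or replicate 1 of KO 4 h (0.0704) was left out.

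*Cd83*, which encodes an immunoglobulin-family molecule of activated B cells and dendritic cells, lies on the plus strand of chromosome 13 (43784775 to 43803132). It was counted at 209.7, 208 and 249 CPM in WT 0 h and at 274, 268 and 279 CPM in KO 0 h. After 4 h the WT libraries held 254, 257 and 285 CPM and the KO libraries 141, 172 and 184 CPM. The genotypes were thus separated in all libraries at both times but in opposite orders, and WT 4 h overlapped with KO 0 h. Culture raised *Cd83* in WT by 0.26 ± 0.08 (1.19-fold, adjusted p = 0.0187) and lowered it in KO, where it fell by 0.72 ± 0.08 on the log2 scale (adjusted p = 1.11e-06). The culture changes differed by 0.98 ± 0.12 (adjusted p = 6.62e-06), and the genotype difference at 4 h was 0.68 ± 0.08 (1.60-fold, adjusted p = 4.80e-05).

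The smaller effects on *Cd83* were less secure. The difference at 0 h was -0.31 ± 0.07 (adjusted p = 0.0356), and leaving out 1 library ended the call in 5 of 6 cases (adjusted p from 0.0655 to 0.214), the exception being WT replicate 3. The rise in WT lost its call when replicate 1 or 2 of WT 0 h was left out (adjusted p = 0.0723 and 0.0899), and likewise for replicate 3 of WT 4 h (0.099). Markers of germinal centre and plasma cells, among which activated B cells with CD83 are found, summed over 7 genes to 120.0 to 167 CPM in uncultured WT cells against 163 to 241 CPM in KO cells, with 3 genes called for KO and 1 for WT, and their part was not tested.

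*Cd69*, an early activation antigen that restrains exit from lymphoid tissue, lies on the minus strand of chromosome 6 (129267325 to 129275436). Levels were 57.1, 55.9 and 61.2 CPM in WT 0 h and 49.0, 49.5 and 51.2 CPM in KO 0 h. At 4 h they were 30.3, 21.1 and 24.8 CPM in WT and 21.7, 20.9 and 20.9 CPM in KO. All cultured libraries lay far below all uncultured ones, and the genotypes overlapped at 4 h but not at 0 h. *Cd69* fell by 1.20 ± 0.10 in WT (adjusted p = 6.13e-09) and by 1.23 ± 0.11 in KO (adjusted p = 1.66e-08). The difference between these changes was 0.04 ± 0.15 (adjusted p = 0.936), with an interval of -0.26 to 0.33, so a difference in the culture response larger than about 0.33 on the log2 scale lies outside 2 standard errors. Genotype was not called at 0 h (0.21 ± 0.08, adjusted p = 0.258) or 4 h (0.26 ± 0.13, adjusted p = 0.257).

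*Cd24a*, which encodes the lipid-anchored glycoprotein CD24 (heat-stable antigen) and declines as B cells mature, lies on the plus strand of chromosome 10 (43578284 to 43584265). Processed copies of this gene are known elsewhere in the mouse genome, and how reads that map to several places were counted is not given in the sources used here, so its level is uncertain to that extent. WT 0 h libraries held 673, 581 and 586 CPM and KO 0 h libraries 468, 515 and 431 CPM. At 4 h the WT libraries held 260.0, 302 and 354 CPM and the KO libraries 322, 358 and 376 CPM. WT lay above KO in all libraries at 0 h, and the genotypes overlapped at 4 h with the lower mean in WT. Before culture the difference was 0.37 ± 0.07 (1.29-fold, adjusted p = 0.0138), a call lost without KO 0 h replicate 1 (0.0833) or KO 0 h replicate 3 (0.0666). Culture lowered *Cd24a* in both genotypes, and it fell by 1.00 ± 0.09 in WT (adjusted p = 1.45e-08) and by 0.42 ± 0.09 in KO (adjusted p = 0.00145).

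The *Cd24a* culture changes differed by -0.58 ± 0.13 (adjusted p = 0.00554). At 4 h the genotype difference was -0.20 ± 0.09 (adjusted p = 0.199), and it was called without WT 4 h replicate 3 (-0.32, adjusted p = 0.027). Transitional B cells, which express much CD24, were followed by the 2 of 4 listed markers present at both times. In WT cells their sum went from 155 to 179.9 CPM before culture to 139.5 to 156 CPM after it, and in KO cells from 149 to 161 CPM to 95.7 to 114 CPM. The markers moved apart in WT culture, where *Cd93* rose (0.57 ± 0.15, adjusted p = 0.00459). *Vpreb3*, the larger part of the sum, fell there (-0.30 ± 0.07, adjusted p = 0.00301). Both were called higher in WT at 4 h, and the part of transitional cells was not tested. Erythroid (4 of 10 genes) and neutrophil (3 of 5 genes at both times) markers, whose cells also express *Cd24a*, ranged from 64.3 to 226 and 19.7 to 118 CPM over all libraries with none called.

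**Figure D3:**
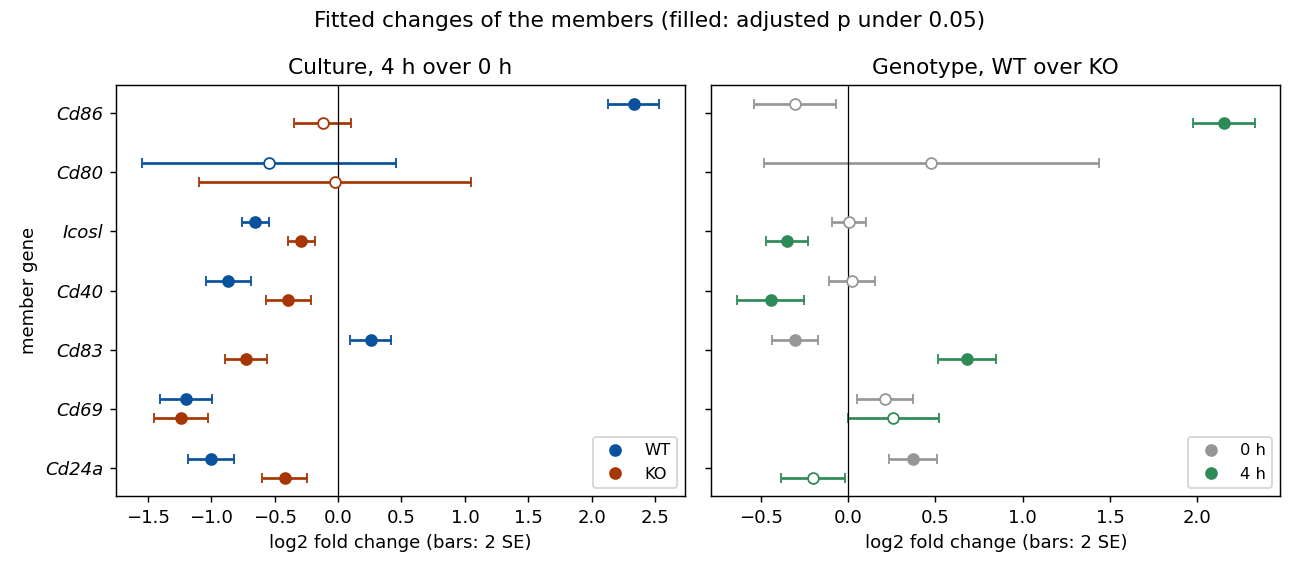
Fitted log2 fold changes of the members for culture in each genotype (left) and for genotype at each time (right), with bars of 2 standard errors and filled points where the adjusted p was below 0.05. *Cd86* and *Cd83* move apart between genotypes, *Icosl*, *Cd40* and *Cd24a* fall further in WT, and *Cd69* falls by about the same amount in both (-1.20 and -1.23).

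The members were compared with each other and with all genes over the 12 libraries by Pearson correlation of log2 CPM, as a description in which the 4 groups supply most of the spread. *Icosl* and *Cd40* followed each other most closely among the members (r = 0.98), and *Cd86* ran opposite to both (r = -0.88 and -0.86). *Cd83* had r of -0.03 and -0.01 with *Icosl* and *Cd40* and 0.45 with *Cd86*. The genes nearest to *Cd86* were *Crem* (r = 0.99), *Gpr132* (0.98), a G-protein-coupled receptor, and *Trib1* (0.98), a pseudokinase. Nearest to *Icosl* were *Slamf1*, *Pxk* and *Cd22* (each 0.99), and nearest to *Cd40* were *Icosl*, *Shank1* (0.98) and *Siglecg* (0.97). *Cd69* lay nearest to *Pfn1*, *Actb* and *Crip1* (each 0.99), of which the first 2 encode the cytoskeletal proteins profilin and actin. *Cd83* was most like *Coq10b* (0.97), *Med10* (0.92) and *Dynll2* (0.91), *Cd24a* like *Hebp1* (0.98), *Samd9l* (0.97) and *Sgk1* (0.96), and *Cd80*, from few reads, like *Tpt1* (0.86), *Mrps21* (0.85) and *Cbx1* (0.84).

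The members were set against other co-signaling genes of the same cells. Of 31 such genes 25 were in the tables and 21 tested at 4 h, where 5 were called, all higher in KO, beside 5.67% of all genes called in that direction. These included *Btla*, an inhibitory receptor that binds HVEM (log2 fold change -1.47 ± 0.07, adjusted p = 2.68e-09), *Cd200*, ligand of an inhibitory receptor (-1.20 ± 0.09), *Pdcd1lg2*, which encodes the PD-1 ligand PD-L2 (-0.46 ± 0.09), and the SLAM-family ligand *Cd48* (-0.28 ± 0.06). *Btla* lay at 421 to 488 CPM in WT 4 h against 1142 to 1344 CPM in KO 4 h. *Cd86* and *Cd83* thus moved opposite to every called gene of this list. In WT culture 16 of 22 were called lowered and 2 raised (18% and 15.1% of all genes), and in KO culture 11 lowered and 1 raised (13% and 10.3%). By the interaction test 3 of 22 (*Btla*, *Cd200*, *Pdcd1lg2*) had a lower culture change in WT, beside 3.94% of all genes. These 3 were not called in KO culture (log2 fold change -0.02, 0.15 and -0.20). The T cell receptors that the members engage were barely detected, as 3 of 4 were in the tables and the highest count was 28 reads, for *Cd28* in a WT 4 h library.

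The pathway downstream of CD40 was tested in full at 4 h, with 24 of 24 genes. The test called 5 as higher in WT and 3 as higher in KO, beside 5.22% and 5.67% of all genes. Higher in WT were *Bcl3*, an atypical IκB protein (0.75 ± 0.07, adjusted p = 1.88e-06), the NF-κB subunit *Rel* (0.56 ± 0.06, adjusted p = 1.48e-05), the adaptor *Traf1* (0.50 ± 0.12, adjusted p = 0.0147) and *Nfkb2* (0.39 ± 0.07, adjusted p = 0.000979). Higher in KO were *Traf5* (-0.41), the kinase *Ikbkb* (-0.29) and the inhibitor *Nfkbie* (-0.23), at adjusted p of 0.0339, 0.0184 and 0.0446. The median over the list was 0.04. *Cd40* itself was lower in WT, like the 3 genes of the list called higher in KO and unlike the 5 called higher in WT. Leaving out any 1 of 4 libraries reduced the 8 calls to 4 or 5 (4 without replicate 1 of KO 4 h, and 5 without replicate 1 or 3 of WT 4 h or replicate 3 of KO 4 h).

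Among 29 B cell activation genes tested at 4 h, 10 were called higher in WT and 2 higher in KO, 17 were not called, and the list median was 0.22. Over all genes 5.22% and 5.67% were called in these directions. *Dusp5*, a MAP kinase phosphatase (3.11 ± 0.38), *Fos* (1.66 ± 0.37), *Nr4a3* (1.53 ± 0.25) and *Junb* (0.97 ± 0.13) were higher in WT at adjusted p of 4.29e-05, 0.00747, 0.000624 and 0.000103. *Dusp5* and *Fos* rested on few reads. For *Dusp5* cultured WT libraries held 4.75 to 6.13 CPM, and cultured KO libraries 0.263 to 0.815 CPM. *Fos* had 16 to 42 reads per cultured WT library, against 6 to 11 per cultured KO library. A higher level in WT did not always reflect a rise in culture. *Dusp5* and *Nr4a3* rose in WT culture (1.64 and 3.49), whereas *Fos* fell in WT (-1.82 ± 0.32) and KO (-2.94 ± 0.40). *Junb* was not called in WT culture (0.005 ± 0.12, adjusted p = 0.981) and fell in KO (-0.93 ± 0.13). *Egr3* (-0.62 ± 0.15) and *Egr1* (-0.41 ± 0.11), early genes of antigen receptor signaling, were higher in KO at adjusted p of 0.012 and 0.0292. *Cd69*, itself an activation marker, had no called genotype difference at 4 h, where 12 of these 29 genes had.

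A further list held 14 genes tied directly or indirectly to the members, as regulators, binding partners, MHC class II genes or cAMP signaling genes. Among them was *Gpr174*, the gene targeted in KO. Without it, 8 of 13 were called at 4 h, 4 higher in WT and 4 higher in KO, beside 5.22% and 5.67% of all genes. *Crem* lay at 121 to 164 CPM in WT 4 h and at 14.0 to 20.4 CPM in the other 9 libraries (3.04 ± 0.12, adjusted p = 3.37e-10), and *Pde4d*, a cAMP phosphodiesterase, was also higher in WT (1.93 ± 0.14, adjusted p = 1.59e-07), as was *Pde4b* (0.51 ± 0.06, adjusted p = 1.74e-05). *Gpr174*, whose difference the design sets, was higher in WT by 0.56 ± 0.07 (adjusted p = 4.21e-05). *March1* encodes a ubiquitin ligase that removes CD86 and MHC class II from the surface, and it was lower in WT at 210 to 260 CPM against 322 to 345 CPM in KO (-0.54 ± 0.07, adjusted p = 0.000133). *Cd86* and *March1* thus differed in opposite directions at 4 h. *Ciita*, the MHC class II transactivator (-1.24 ± 0.06, adjusted p = 9.46e-10), *H2-Eb1* (-0.25 ± 0.07, adjusted p = 0.0269) and the quiescence factor *Klf2* (-0.59 ± 0.07, adjusted p = 6.43e-05) were lower in WT as well. *Cd74*, listed with the class II genes, was higher in WT (0.37 ± 0.09, adjusted p = 0.0178). The class II genes *H2-Aa* and *H2-Ab1* were not called (adjusted p = 0.128 and 0.084). At 0 h *Klf2* was the 1 of these 13 genes called, higher in WT by 0.43 on the log2 scale, beside 0.502% of all genes.

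**Figure D4:**
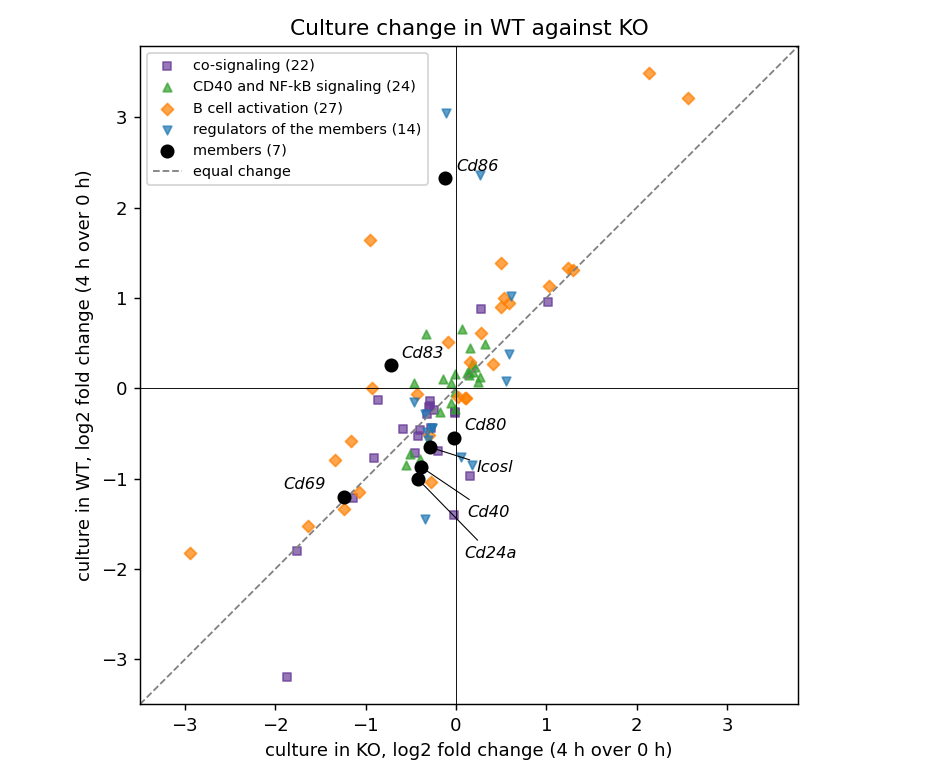
Culture change in WT (vertical) against that in KO (horizontal), as log2 fold changes of 4 h over 0 h, for the members (black) and the genes of the 4 lists described in the text, with a dashed line of equal change. *Cd86* lies at 2.33 in WT and -0.12 in KO, *Cd83* is the other member above the line with opposite signs, and *Cd69* lies on it.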

How the data were processed

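Follicular B cells sorted from spleen were frozen after the sort or after 4 h of culture. The authors amplified RNA with the Ovation RNA-seq System V2, sequenced single-end reads, mapped them with STAR (mm10) and assigned reads to genes with HTSeq. Strand setting, annotation, treatment of multiply mapped reads and tool versions were not given in the sources used here. What the authors deposited were raw counts of reads, without normalization, for 13269 genes at 0 h and 13142 at 4 h (12837 shared). No row summed to fewer than 10 reads, and *Rn45s* took 6.65% to 11.3% of counts. In the gene annotation no other gene overlapped the members' exons.

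Counts were filtered with filterByExpr, scaled by TMM and tested with edgeR 4.0.16 (glmQLFit and glmQLFTest, R 4.3.3), with Benjamini-Hochberg adjustment over all genes tested and calls at 0.05. Genotype was compared within the 6 libraries of each table, culture and the interaction in a fit of all 4 groups. Log2 fold changes are WT over KO, 4 h over 0 h, and the WT minus the KO culture change, each ± its standard error. CPM uses TMM-scaled totals, RPKM the exonic bases of GENCODE vM21 (GRCm38), and log2 CPM a prior count of 2. Every pair of replicates differed by more than sampling noise, so all 12 libraries were kept. Alternatives were RLE scaling, library totals, DESeq2 1.42.0, no filter, a replicate block, other libraries in the fit and each library left out. The scripts were tested on simulated data.

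The members, gene lists and marker lists were chosen with earlier results of these data known. The text names every member, the 3 genes most correlated with each, and from each pathway list up to 4 called genes of largest fold change in each direction, at 4 h and in the interaction. *Flt3*, *Itgax*, *Zbtb46*, *Emr1*, *Cd93*, *Vpreb3*, *Cd28*, *Cd74*, *H2-Aa* and *H2-Ab1* were named after their values were seen. Promoter sequences are from RefSeq.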

Additional observations from a re-analysis of the deposited data

Results flagged for a closer look

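The culture response of WT and KO cells differed in the interaction test for 5 members. The difference, as the WT minus the KO log2 change, was 2.45 for *Cd86*, 0.98 for *Cd83*, -0.36 for *Icosl*, -0.47 for *Cd40* and -0.58 for *Cd24a*. *Cd83* was the called member that rose in WT and fell in KO.

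The same test picked out genes of the lists set beside them, all at an edgeR adjusted p below 0.05. Among co-signaling genes the difference was -1.39 for *Btla*, -1.12 for *Cd200* and -0.50 for *Pdcd1lg2*. Among CD40 and NF-κB genes it was 0.93 for *Bcl3*, 0.59 for *Rel*, 0.53 for *Traf1* and -0.38 for *Ikbkb*, of which the *Traf1* call was lost in 10 of 17 alternatives and the *Ikbkb* call in 6 of 17. Among activation genes it was 2.60 for *Dusp5*, 0.93 for *Junb*, 0.88 for *Nr4a1*, 0.60 for *Tfrc*, the transferrin receptor, and -0.76 for *Egr3*, and the *Dusp5* call was lost without KO 0 h replicate 1 (adjusted p = 0.111). In the list of genes tied to the members it was 3.15 for *Crem*, 2.09 for *Pde4d* and 0.41 for *Pde4b*. In that list it was also -1.11 for *Ciita*, -1.02 for *Klf2*, -0.81 for *March1* and -0.47 for *Gpr174*. *Gpr174* itself rose in KO culture by 0.55 ± 0.07 (adjusted p = 2.39e-06) and had a culture change of 0.09 ± 0.06 in WT (adjusted p = 0.31).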

How the results depend on the processing

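The number of members called at 0 h fell from 2 to 1 when all 4 groups entered the fit, and ranged from 0 to 2 when each library was left out. Leaving out a library gave 4 to 5 called members for genotype at 4 h, 5 to 6 for culture in WT, 5 to 5 for culture in KO and 4 to 5 for the interaction. Directions turned only for members without a call. With library totals *Icosl* at 0 h went to -0.025, *Cd40* at 0 h to -0.0076 and *Cd80* in KO culture to 0.066. When a library was left out, *Icosl* at 0 h ranged from -0.023 to 0.030, *Cd40* at 0 h from -0.041 to 0.073, *Cd80* in KO culture from -0.31 to 0.30 and the *Cd69* interaction from -0.091 to 0.14. All genes called at 0 h numbered 112 and ranged from 26 to 161 when a library was left out, and those at 4 h numbered 1212 and ranged from 776 to 1359. Library totals shifted the median of all genes by 0.11 in WT culture and 0.09 in KO culture, and raised the CD40 and NF-κB genes called in KO culture from 8 to 16. Whether 0 h and 4 h libraries of a number came from the same mouse is not stated. Deviations of same-numbered libraries correlated at -0.099 to 0.073 between genotypes, against -0.096 to 0.10 for different numbers. In WT, same-numbered libraries of 0 h and 4 h correlated at 0.072 to 0.13, and different numbers at -0.099 to -0.0041. In KO the values were -0.040 to 0.15, and -0.18 to 0.051 for different numbers. Same-numbered libraries of 0 h and 4 h were thus more alike than others in WT, and for numbers 2 and 3 in KO. The main fits did not use the numbers to pair samples. With the number as a replicate block the members called were 2 at 0 h, 4 at 4 h, 6 in WT culture, 5 in KO culture and 5 in the interaction, as without it. Of 44 calls of other named genes 33 held under every alternative. Those that did not were *Traf1*, *Ikbkb*, *Nfkbie*, *H2-Eb1*, *Traf5*, *Egr1*, *Egr3* and *Fos* at 4 h, and *Traf1*, *Ikbkb* and *Dusp5* in the interaction. Of 21 neighbours 3 were also among the nearest by Spearman correlation. The cause of these differences was not tested. Depth limits statements on *Cd80*, and on marker genes with few reads.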
